A study of Mus musculus with 6 samples.

Results

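The 35 genes described here make, move or sense bile acids: 12 encode enzymes of bile acid synthesis and conjugation, 6 uptake transporters, 11 exporters, and 6 the nuclear receptors and the growth factor receptor pair that read bile acid levels. They were chosen by gene symbol from the 35976 rows of a liver RNA-seq count table, and all 35 symbols were found. The table holds 6 libraries of poly(A) RNA from the livers of male mice fed a diet given as HFD (high-fat diet), 3 with the IRE1fl genotype and 3 with IRE1PKO. All mice had fasted for 16 hours and then fed for 4 hours before sampling. IRE1, encoded by Ern1, is a stress sensor of the endoplasmic reticulum. What PKO stands for is not spelled out, nor are the Cre driver, strain and age given; the series title concerns signals from the pituitary to a fatty liver. No label says that each library is a separate animal, so p-values cover only variation among these libraries, which may be technical.

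Bile acids are made from cholesterol in hepatocytes, conjugated, and pumped across the canalicular membrane into bile. Most are taken up again in the intestine and return to hepatocytes by the portal blood. The nuclear receptor FXR senses them: in liver it induces the repressor SHP and export pumps, and in the intestine it induces Fgf15, which acts on liver through FGFR4 and its partner beta-Klotho to restrain synthesis.

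Counts summed to between 35776219 and 39277435 per library, of which the 35 genes took 1.16% to 1.27%. Levels are given in CPM, counts relative to the library total after TMM scaling (trimmed mean of M-values), and differences as log2 fold changes of IRE1PKO over IRE1fl with a standard error (SE). A gene is called where edgeR's quasi-likelihood test gave a Benjamini-Hochberg adjusted p below 0.05 over the 14954 genes tested. By this rule 849 genes were higher (5.68%) and 577 lower (3.86%), together 9.54%. With library totals as the only scaling, which moved the median of all genes to 0.07, the numbers were 1148 and 415. Ern1 itself (chromosome 11, 106397620 to 106487796) was read at 61.2, 49.3 and 60.8 CPM in IRE1fl livers and at 45.7, 36.6 and 44.2 CPM in IRE1PKO livers. It fell by 0.44 (SE 0.11; edgeR adjusted p = 0.0357), a call lost in 5 of 6 omissions of a library. Where the deletion was made is not known here, so this does not check the labels. Alb, a hepatocyte marker, reached 56457 to 71779 CPM. Of 10 hepatocyte markers 3 fell, against 3.86% of all tested genes. The summed level of the 10 was 99767 to 119489 CPM in IRE1fl and 94110 to 117336 CPM in IRE1PKO. Library IRE1fl 01 stood apart from the other 5 on the second principal component (34.0, against -22.4 to 5.61), so values without it are given for the genes below whose call or size it moves most.

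Of the 35 genes, 33 passed the filter on low counts and were tested. Higher in IRE1PKO were 4, namely Slco1a4, Abcb1a, Abcc3 and Abcc4, against 5.68% of all tested genes. Lower were 3, namely Cyp7b1, Amacr and Slco1a1, against 3.86% of all tested genes. The 4 that rose are all transporters, and of the 3 that fell 2 are synthesis enzymes and 1 is an uptake transporter. The called share was 21.2% (7 of 33), with a median log2 fold change of -0.06 over the 33 genes and -0.00142 over all tested genes. The 3 libraries of one genotype did not overlap with those of the other for 15 of the 33 genes (45.5%), against 31.0% of all tested genes.

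**Figure D1:**
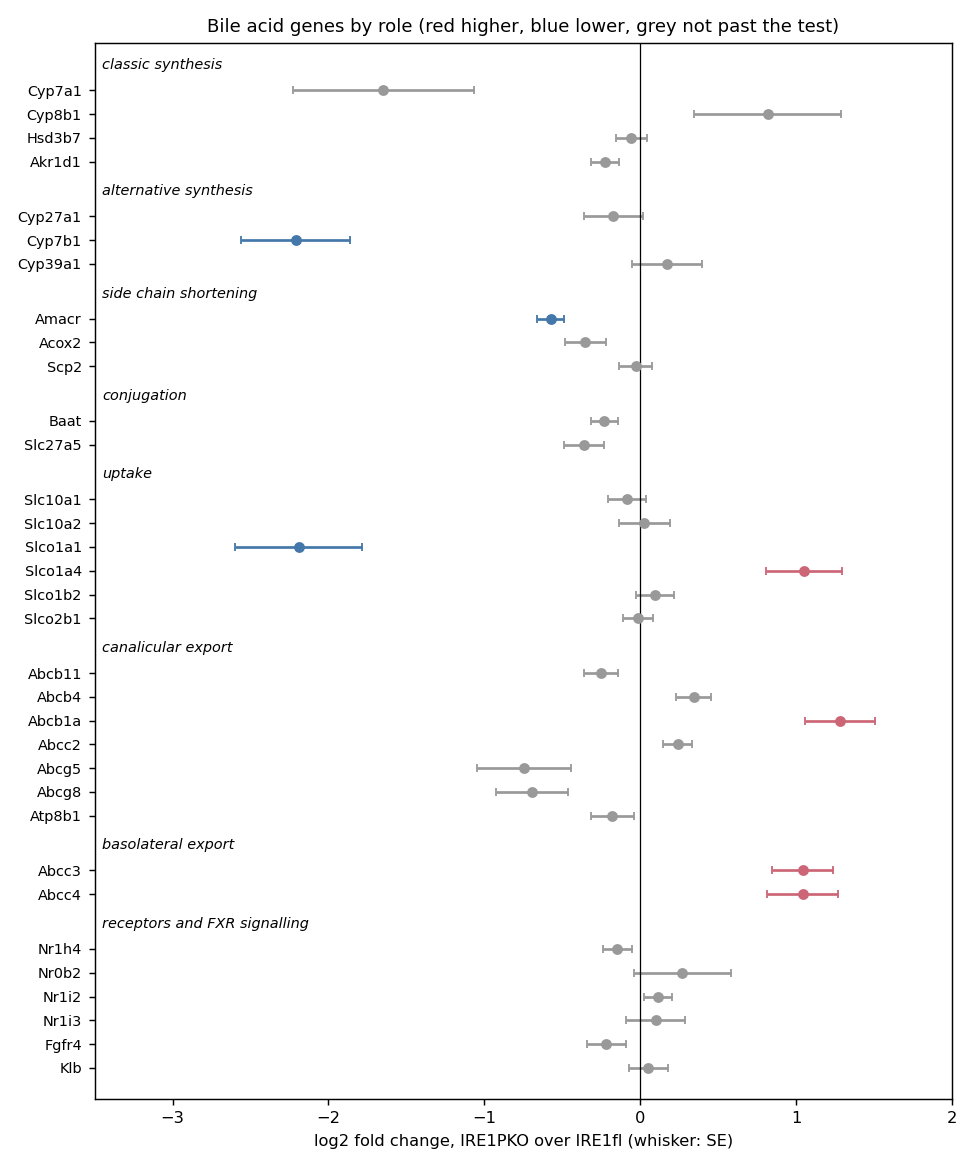
Log2 fold change (IRE1PKO over IRE1fl) of the 33 tested bile acid genes, grouped by role. Points are the edgeR estimates and whiskers 1 SE; red and blue points passed the test. The largest falls are those of Cyp7b1 (-2.21) and Slco1a1 (-2.19), and the largest rise is that of Abcb1a (1.28).

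In the classic pathway of synthesis, none of 4 genes was called by edgeR, against 9.54% of all tested genes. However, 2 were below an unadjusted p of 0.05 and DESeq2 called 1, Cyp7a1. Cyp7a1, the rate-limiting hydroxylase (chromosome 4, 6265612 to 6275632), had 80.0, 292 and 232 CPM in IRE1fl and 82.3, 44.4 and 66.0 CPM in IRE1PKO. Libraries IRE1fl 02 and 03 were above all IRE1PKO libraries, while IRE1fl 01 lay inside their range. The log2 fold change was -1.65 (SE 0.58), with an edgeR adjusted p of 0.183. Without IRE1fl 01 it was -2.03 and passed (edgeR adjusted p = 0.00987). Leaving out any other single library gave values from -1.87 to -1.28, none of which passed.

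Cyp8b1 is the sterol hydroxylase that turns synthesis towards cholic acid (chromosome 9, 121914356 to 121916305). It had 148, 390 and 234 CPM in IRE1fl and 630.5, 421 and 308 CPM in IRE1PKO. The groups overlapped, since IRE1fl 02 was above IRE1PKO 03. Its log2 fold change was 0.82 (SE 0.47; edgeR adjusted p = 0.368). Omitting 1 library gave 0.50 without IRE1PKO 01, 0.54 without IRE1fl 01 and up to 1.245 without IRE1fl 02, none past the test. The point estimates of Cyp7a1 and Cyp8b1 thus had opposite signs, and neither passed. Within each library, where scaling drops out, the ratio of Cyp8b1 to Cyp7a1 counts was 1.85, 1.33 and 1.01 in IRE1fl and 7.66, 9.48 and 4.67 in IRE1PKO. The lowest IRE1PKO ratio was above the highest IRE1fl ratio. This and 5 other ratios were chosen after the values were seen and carry no test.

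Hsd3b7 and Akr1d1 modify the sterol ring after hydroxylation. Akr1d1 had 179 to 201 CPM in IRE1fl and 157 to 171 CPM in IRE1PKO, with groups that did not overlap, a log2 fold change of -0.23 (SE 0.09) and an edgeR adjusted p of 0.140. Hsd3b7 ranged from 420.0 to 498 CPM over all 6 libraries, with a log2 fold change of -0.06 (SE 0.10). Its level is uncertain. A gene on the opposite strand also covers 62.4% of its exonic bases, and a predicted gene on its own strand, Gm49388, covers 62.0%. Of the 50-base windows of the Hsd3b7 transcript, 93.9% also occur in Gm49388. No source used here says whether counting used strand.

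The 250 bases before the Cyp8b1 start site are shown because they hold, of the 27 genes with an entry in the promoter table, the only match to an HNF4 element, and the hepatocyte receptor Hnf4a is reported below. The sequence lies at chr9:121916306-121916555 (minus strand, RefSeq, GRCm38.p6), and capitals mark, in order, a match to TGACNNNGC, the NRF2 element, and a match to CAAAGTCCA, the HNF4 element.
Cyp8b1: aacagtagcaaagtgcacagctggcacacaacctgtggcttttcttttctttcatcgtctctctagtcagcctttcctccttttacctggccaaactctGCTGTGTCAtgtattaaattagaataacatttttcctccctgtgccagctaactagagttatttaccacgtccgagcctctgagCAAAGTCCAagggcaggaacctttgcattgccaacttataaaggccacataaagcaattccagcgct

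In the alternative pathway, 1 of 3 genes fell, against 3.86% of all tested genes. Cyp7b1, the oxysterol hydroxylase of this pathway (chromosome 3, 18071944 to 18243890), had 137, 276 and 329 CPM in IRE1fl and 55.0, 48.6 and 56.7 CPM in IRE1PKO. Every IRE1PKO library was below every IRE1fl library, and the IRE1PKO values lay close together. On the log2 scale it fell by 2.21 (SE 0.35; edgeR adjusted p = 0.0221), a fold of 0.216. The call was lost without any one of IRE1fl 02 and the 3 IRE1PKO libraries, with an edgeR adjusted p of up to 0.0995, while the value stayed between -2.51 and -1.95.

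Cyp27a1, the mitochondrial hydroxylase that opens the alternative pathway, had 347, 572 and 451 CPM in IRE1fl and 397, 475 and 344 CPM in IRE1PKO. Its groups overlapped (log2 fold change -0.17, SE 0.19). The ratio of Cyp7b1 to Cyp27a1 counts was 0.395 to 0.729 in IRE1fl libraries and 0.102 to 0.165 in IRE1PKO libraries, without overlap. Cyp39a1, which hydroxylates an oxysterol made by Cyp46a1, had 18.3 to 32.3 CPM in IRE1fl and 23.0 to 30.9 CPM in IRE1PKO and did not pass (log2 fold change 0.17, SE 0.23; 0.46 without IRE1fl 01).

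Cyp7b1 and the uptake transporter Slco1a1 are known as male-biased genes of mouse liver. Over all tested genes, 3.86% were lower and 5.68% higher. A list of 15 other male-biased genes, 14 of them tested, had 6 lower and 1 higher, with a median log2 fold change of -1.26. Among them Gstp1, a glutathione transferase, fell by 1.54 (SE 0.12), Cspg5, a proteoglycan, fell by 2.82 (SE 0.44) and Serpina1e, of the alpha-1-antitrypsin family, fell by 4.93 (SE 0.46). The member that rose was Cyp4a12a (2.18, SE 0.33), named after its value was seen, with a call lost in 4 of 6 omissions of a library. Cyp4a12a and Serpina1e belong to families of near-identical copies, so their counts are uncertain. Of 16 female-biased genes, 12 were tested and 2 rose, Rtn4 by 0.97 (SE 0.11) and the flavin monooxygenase Fmo2 by 0.72 (SE 0.13), with a median of 0.99. Not tested were Sult2a1, Sult3a1, Cyp3a41a and Cyp3a44, which the median leaves out. They reached at most 0.831 CPM in IRE1fl libraries and 0.154 CPM in IRE1PKO libraries. None of the 12 was lower by edgeR, at an unadjusted p below 0.05, or by DESeq2 or limma-voom. These lists were drawn up with results of these libraries known, so they are not independent evidence.

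In the peroxisomal steps that shorten the side chain, 1 of 3 genes fell, against 3.86% of all tested genes. Amacr, the racemase that precedes these steps (chromosome 15, 10981756 to 10996624), had 198, 203 and 219 CPM in IRE1fl and 136, 142 and 138 CPM in IRE1PKO. All IRE1PKO libraries were below all IRE1fl libraries, and the spread within each genotype was small. On the log2 scale it fell by 0.58 (SE 0.09; edgeR adjusted p = 0.00224), a fold of 0.671, and passed in each of 15 alternative settings, the 6 that leave out 1 library included.

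Acox2, the branched-chain acyl-CoA oxidase, had 300.3, 218 and 207 CPM in IRE1fl and 191, 193 and 184 CPM in IRE1PKO. Its groups did not overlap, but the difference did not pass (log2 fold change -0.35, SE 0.13; edgeR adjusted p = 0.127). Without IRE1fl 01, its highest library, the value was -0.17 (edgeR adjusted p = 0.324). Scp2, the sterol carrier and thiolase, was the most abundant of the 35 genes per length, with 1250.3 CPM per kilobase of exons in IRE1fl and 1224.8 in IRE1PKO. Its log2 fold change was -0.03 (SE 0.10), although 41.4% of its 50-base transcript windows also occur in the pseudogene Scp2-ps2.

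Neither conjugation gene was called by edgeR, against 9.54% of all tested genes. However, both were below an unadjusted p of 0.05, and DESeq2 called Slc27a5. Slc27a5, the bile acyl-CoA synthetase, had 898, 1036 and 1226 CPM in IRE1fl and 785, 896 and 777 CPM in IRE1PKO, with a log2 fold change of -0.36 (SE 0.13; edgeR adjusted p = 0.101). The genotypes almost touched at IRE1fl 01 and IRE1PKO 02, and without IRE1fl 01 the gene passed (-0.47, edgeR adjusted p = 0.0432). Baat, which conjugates bile acids, had 228, 223 and 221 CPM in IRE1fl and 197, 179.6 and 196 CPM in IRE1PKO (log2 fold change -0.23, SE 0.09; edgeR adjusted p = 0.123). Over all 12 synthesis and conjugation genes, 10 had a negative log2 fold change and 2 fell, against 3.86% of all tested genes that fell. In 6 the groups did not overlap, each lower in IRE1PKO, against 15.0% of all tested genes.

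**Figure D2:**
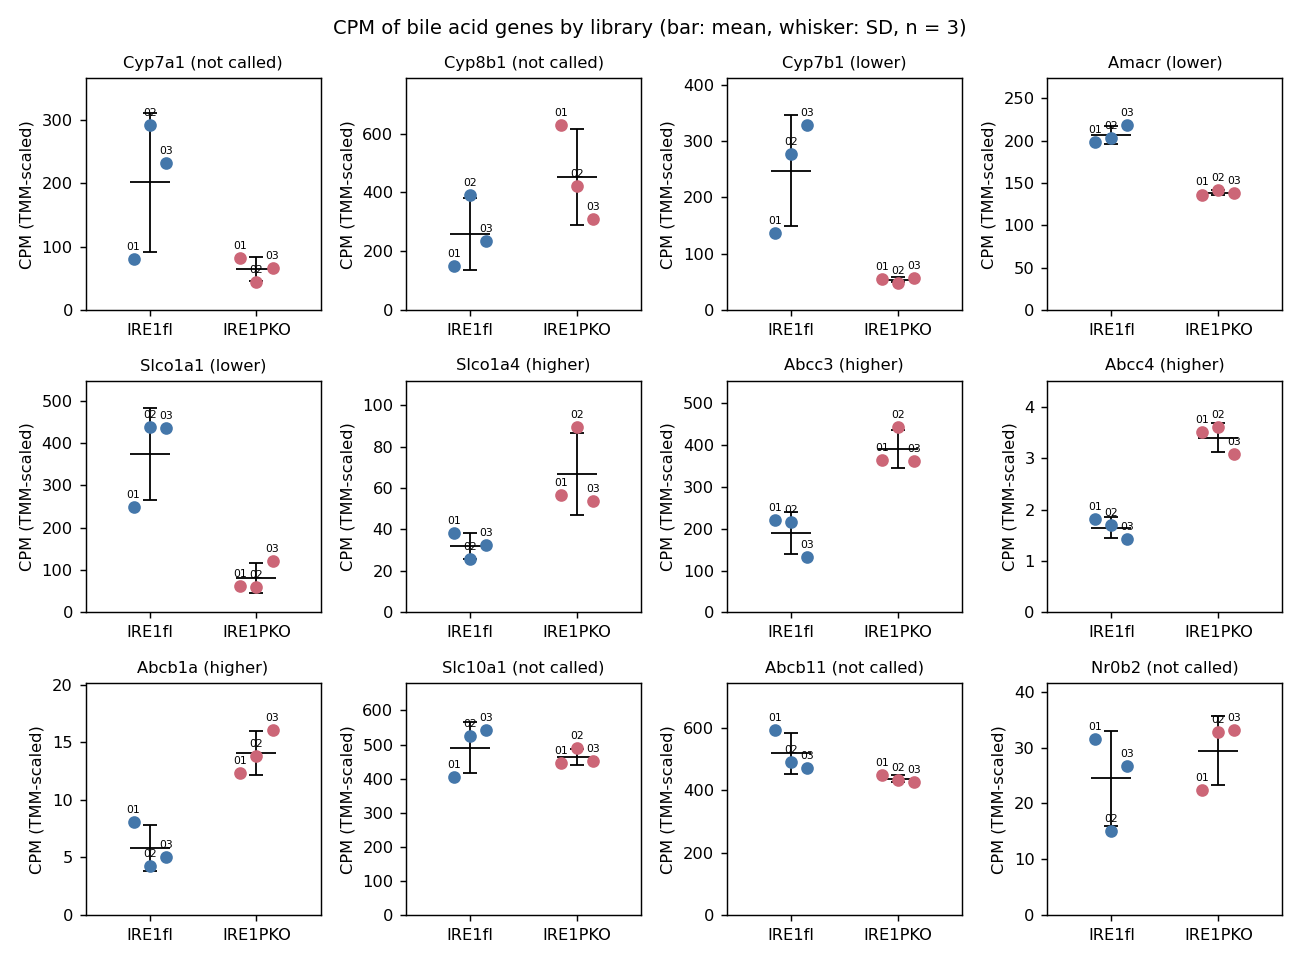
CPM of 12 bile acid genes in each library, with the axis from 0; points are libraries numbered as in the labels, long bars the mean and whiskers the SD (n = 3). For Cyp7a1, IRE1fl 01 sits at 80.0 CPM among the IRE1PKO libraries. For Cyp7b1, Amacr, Slco1a1, Slco1a4, Abcc3, Abcc4, Abcb1a and Abcb11, the last not called, the genotypes do not overlap. This holds for 31.0% of all tested genes.

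Among uptake transporters, 1 of 6 fell, 1 rose and 4 did not pass. Of all tested genes, 3.86% fell and 5.68% rose. The pair that changed are neighbours and paralogs on chromosome 6. Slco1a1 (141907281 to 141946962), an organic anion transporter of the basolateral membrane, had 249, 437 and 435 CPM in IRE1fl and 62.3, 61.0 and 122 CPM in IRE1PKO. IRE1fl 01 was lowest of its group and IRE1PKO 03 highest of its own, and the groups did not overlap. The log2 value fell by 2.19 (SE 0.41; edgeR adjusted p = 0.0391), a fold of 0.219. Omitting IRE1fl 02, IRE1fl 03, IRE1PKO 01 or IRE1PKO 02 ended the call, with an edgeR adjusted p of at most 0.125 and values from -2.60 to -2.02 over all 6 omissions. Testing without the filter on low counts also ended it (0.0681).

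Slco1a4 (141805438 to 141856284), a related transporter, had 38.4, 25.7 and 32.3 CPM in IRE1fl and 56.5, 89.3 and 53.9 CPM in IRE1PKO. All IRE1PKO libraries were above all IRE1fl libraries, IRE1PKO 02 by the most. It rose by 1.05 (SE 0.24; edgeR adjusted p = 0.0479), a fold of 2.07, close to the threshold. Omitting IRE1fl 02, IRE1fl 03, IRE1PKO 01 or IRE1PKO 03 ended the call (at most 0.156), as did testing without the filter on low counts (0.143).

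The ratio of Slco1a4 to Slco1a1 counts was 0.154, 0.0589 and 0.0742 in IRE1fl and 0.906, 1.46 and 0.442 in IRE1PKO. Of the 50-base windows of the Slco1a1 transcript, 2.18% also occur in Slco1a4 transcripts, and 2.65% of those of Slco1a4 occur in Slco1a5, so few reads of that length could be shared. Per kilobase of exons, mean levels were 70.8 CPM for Slco1a1 and 5.01 CPM for Slco1a4 in IRE1fl, and 15.5 and 10.4 CPM in IRE1PKO.

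The 250 bases before the start sites of these neighbours are shown because the genes changed in opposite directions. They lie at chr6:141946963-141947212 for Slco1a1 and chr6:141856221-141856470 for Slco1a4 (minus strand, RefSeq, GRCm38.p6), and capitals mark AGGTCA, the half-site of nuclear receptors, on either strand. Slco1a1 holds it at 2 places, 134 to 129 and 24 to 19 bases before the start, and this window of Slco1a4 holds no match to any motif named here. The Slco1a4 window partly overlaps the gene span given above, so the start of its promoter entry is not the outermost start of the gene.
Slco1a1: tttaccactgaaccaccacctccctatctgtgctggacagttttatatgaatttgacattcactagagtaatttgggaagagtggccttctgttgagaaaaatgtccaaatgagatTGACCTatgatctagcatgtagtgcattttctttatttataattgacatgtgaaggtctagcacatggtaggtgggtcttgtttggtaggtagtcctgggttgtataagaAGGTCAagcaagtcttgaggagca
Slco1a4: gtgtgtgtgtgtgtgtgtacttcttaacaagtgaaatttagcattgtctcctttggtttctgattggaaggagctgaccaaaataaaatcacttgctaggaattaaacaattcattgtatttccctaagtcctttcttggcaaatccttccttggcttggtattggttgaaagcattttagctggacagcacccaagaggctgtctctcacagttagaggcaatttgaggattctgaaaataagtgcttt

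Slc10a1, the main sodium-dependent bile acid importer of hepatocytes, had 405, 524 and 544 CPM in IRE1fl and 446, 489 and 452 CPM in IRE1PKO. The IRE1PKO values lay inside the IRE1fl range, with a log2 fold change of -0.09 (SE 0.12). Slco1b2, the organic anion importer of hepatocytes, had 799 to 968 CPM in IRE1fl and 826 to 1074 CPM in IRE1PKO (0.09, SE 0.12). Slco2b1 had 252 to 265 CPM in IRE1fl and 229 to 277 CPM in IRE1PKO (-0.01, SE 0.10).

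Slc10a2 is the apical importer best known from ileum and bile duct cells. It had 53.5 to 67.2 CPM in IRE1fl and 47.4 to 74.2 CPM in IRE1PKO (log2 fold change 0.03, SE 0.16). The bile duct markers Krt7, Krt19 and Epcam were low beside it, at 0.269 to 1.38 CPM over all 6 libraries and the 3 genes. Of 12 cholangiocyte markers 9 were tested, of which Spp1 rose and Sox9 fell, against 5.68% and 3.86% of all tested genes. The summed level of the 12 was 177 to 192 CPM in IRE1fl and 207 to 232 CPM in IRE1PKO. Of 10 intestinal markers 9 were found and 4 tested, and Apoa4 and Fabp2, both also made by hepatocytes, rose, calls lost in 1 and 3 of 6 omissions of a library. Their summed level was 876 to 1107 CPM in IRE1fl and 2996 to 6419.8 CPM in IRE1PKO, while Fabp6, Alpi and Cdx2 were at 0 in every library and Vil1 was at 0 to 0.217 CPM. The part of bile duct or intestinal cells in the Slc10a2 level was not tested.

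**Figure D3:**
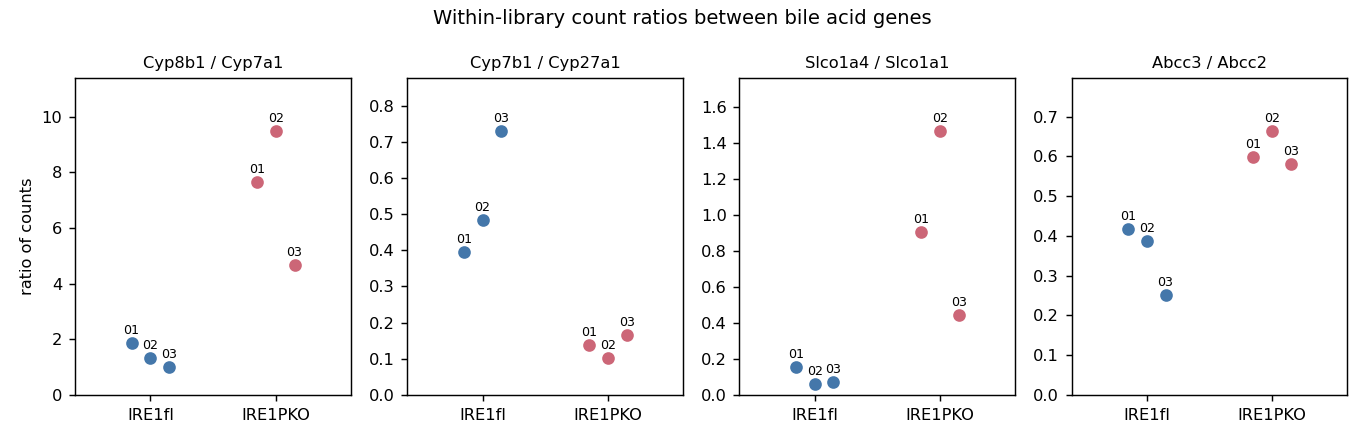
Count ratios between pairs of bile acid genes in each library, on linear axes from 0; points are libraries numbered as in the labels. These are 4 of 6 ratios computed; the genotypes do not overlap in these 4 and overlap in the others, Abcg5 to Abcg8 and Abcb11 to Slc10a1, and Cyp8b1 to Cyp7a1 runs from 1.01 to 1.85 in IRE1fl and from 4.67 to 9.48 in IRE1PKO.

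On the export side, 3 of 9 tested genes rose, against 5.68% of all tested genes. None fell by edgeR, although 2 were lower at an unadjusted p below 0.05 and DESeq2 called 1 of them, Abcg8. Both tested basolateral exporters rose. Abcc3, which returns conjugates from hepatocytes to blood (chromosome 11, 94343295 to 94393017), had 220.3, 217 and 132 CPM in IRE1fl and 365, 443 and 363 CPM in IRE1PKO. Every IRE1PKO library was above every IRE1fl library. It rose by 1.04 (SE 0.20; edgeR adjusted p = 0.0153), a fold of 2.06, and the call was lost without IRE1PKO 01 (0.0580) or IRE1PKO 02 (0.0504).

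Abcc4, a related basolateral exporter (chromosome 14, 118482692 to 118707856), had 1.83, 1.70 and 1.43 CPM in IRE1fl and 3.52, 3.61 and 3.08 CPM in IRE1PKO. The groups did not overlap, and each IRE1PKO library held 126 to 137 counts against 53 to 66 in IRE1fl. It also rose by 1.04 (SE 0.23; edgeR adjusted p = 0.0161). Omitting IRE1fl 03, IRE1PKO 01 or IRE1PKO 02 ended the call, with an edgeR adjusted p of at most 0.0681. Per kilobase of exons, Abcc3 reached 33.3 CPM in IRE1fl and 68.5 CPM in IRE1PKO, and Abcc4 0.259 and 0.533 CPM.

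The basolateral pair Slc51a and Slc51b, whose products work as a dimer, had few or no counts. Slc51a had no count in any library, where a floor of 3 counts per library equals 0.0733 to 0.0851 CPM, and Slc51b had 1 to 10 counts in IRE1fl and 4 to 10 in IRE1PKO. Such floors cover counting error only. Neither gene was tested, and a difference in either was not detectable at this depth.

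At the canalicular membrane, 1 of 7 genes rose, against 5.68% of all tested genes. Abcb1a, a broad efflux pump (chromosome 5, 8567091 to 8748575), had 8.06, 4.28 and 5.04 CPM in IRE1fl and 12.3, 13.8 and 16.1 CPM in IRE1PKO. The highest IRE1fl library, 01, was below the lowest IRE1PKO library, also 01. It rose by 1.28 (SE 0.22; edgeR adjusted p = 0.00686), a fold of 2.43, and passed in each of 15 alternative settings. Its paralog Abcb1b shares 15.5% of its 50-base windows and gave a log2 fold change of -0.58 (SE 0.35; edgeR adjusted p = 0.329). Another gene, on the opposite strand, covers 10.1% of the exonic bases of Abcb1a.

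Abcb1a is also known from endothelium. Of 10 sinusoidal endothelial markers 4 rose, against 5.68% of all tested genes. The summed level of the 10 was 272 to 301 CPM in IRE1fl and 322 to 440 CPM in IRE1PKO. Stab2 was higher by 0.47 (SE 0.12) and Clec4g did not pass (0.17, SE 0.15). The Stab2 call was lost in 5 of 6 omissions of a library. Stellate cell markers rose in 7 of 10, against the same 5.68%, with sums of 371 to 445 and 571 to 628 CPM. Lrat rose by 0.96 (SE 0.13) and Reln by 0.47 (SE 0.10), the latter call lost in 3 of 6 omissions. The part of these cells in the exporter values was not tested. In bulk RNA, more cells of a type and more RNA per cell cannot be told apart.

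The windows before the start sites of both remaining called exporters with a promoter entry are shown for comparison with the Slco1a pair. They lie at chr5:8566841-8567090 (plus strand) for Abcb1a and chr14:118706220-118706469 (minus strand) for Abcc4, whose more upstream entry is used (RefSeq, GRCm38.p6). Capitals mark TGACNNNGC, the NRF2 element, on either strand. Abcb1a holds no match to any motif named here, and Abcc4 holds the element 25 to 17 bases before the start of that entry. The Abcc4 window lies inside the gene span given above, so this start is not the outermost start of the gene.
Abcb1a: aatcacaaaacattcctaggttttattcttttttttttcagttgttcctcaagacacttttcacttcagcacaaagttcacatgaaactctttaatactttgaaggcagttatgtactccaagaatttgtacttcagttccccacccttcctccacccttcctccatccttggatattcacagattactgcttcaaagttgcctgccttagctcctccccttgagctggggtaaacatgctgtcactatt
Abcc4: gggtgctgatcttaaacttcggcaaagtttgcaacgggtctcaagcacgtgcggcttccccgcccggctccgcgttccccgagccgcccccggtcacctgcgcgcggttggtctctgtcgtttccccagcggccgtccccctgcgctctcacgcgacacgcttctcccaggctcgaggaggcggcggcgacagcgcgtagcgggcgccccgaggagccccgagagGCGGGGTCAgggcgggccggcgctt

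Matches to these motifs are descriptions of letters, not of binding. In 32851 promoter entries of the same 250-base length, AGGTCA occurs in 14.0% and TGACNNNGC in 10.2%, CAAAGTCCA in 0.384%, the STAT element TTCNNNGAA in 7.02% and the AP-1 element TGACTCA in 4.46%, both strands searched. Of the 27 genes with an entry, 10 hold AGGTCA, 5 TGACNNNGC, 6 TTCNNNGAA and 3 TGACTCA. The FXR inverted repeat (AGGTCA facing its reverse complement across 1 base) and the LRH-1 element TCAAGGTCA, which both contain the half-site, have no match in these 27 genes and occur in 0.00609% and 0.387% of all entries.

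The bile salt pump and its partners did not pass. Abcb11, the bile salt export pump, had 595, 492 and 472 CPM in IRE1fl and 450.0, 433 and 427 CPM in IRE1PKO, without overlap, and a log2 fold change of -0.25 (SE 0.11; edgeR adjusted p = 0.181), which was -0.14 without IRE1fl 01. The ratio of Abcb11 to Slc10a1 counts was 1.47, 0.937 and 0.868 in IRE1fl and 1.01, 0.886 and 0.946 in IRE1PKO, with overlap. Abcb4, the phospholipid floppase, had 296, 279 and 228 CPM in IRE1fl and 357, 332 and 329 CPM in IRE1PKO, also without overlap (0.34, SE 0.11; edgeR adjusted p = 0.0779). Abcb4 passed with library totals as the only scaling (0.0494), without the filter on low counts (0.0389) and by DESeq2 (0.0345).

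Abcc2, the canalicular exporter of conjugates, had 527, 558 and 526 CPM in IRE1fl and 609, 668 and 625 CPM in IRE1PKO (0.24, SE 0.09; edgeR adjusted p = 0.140). The ratio of Abcc3 to Abcc2 counts was 0.418, 0.388 and 0.251 in IRE1fl and 0.600, 0.664 and 0.581 in IRE1PKO. Atp8b1, a phospholipid flippase of the same membrane, had 43.0 to 62.1 CPM in IRE1fl and 40.5 to 50.9 CPM in IRE1PKO (-0.18, SE 0.14).

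Abcg5 and Abcg8 form the sterol exporter that moves cholesterol into bile, and are neighbours on opposite strands of chromosome 17. Abcg5 had 215, 103 and 138 CPM in IRE1fl and 73.0, 104 and 95.0 CPM in IRE1PKO, and Abcg8 had 279, 158 and 192 CPM in IRE1fl and 106, 154 and 128 CPM in IRE1PKO. IRE1fl 01 was highest and IRE1fl 02 lowest of their group for both. The log2 fold changes were -0.74 (SE 0.30; edgeR adjusted p = 0.206) for Abcg5 and -0.70 (SE 0.23; 0.122) for Abcg8. Without IRE1fl 02 Abcg8 passed (-0.86, edgeR adjusted p = 0.0426), and without IRE1fl 01 it was -0.44. The same omissions gave -0.96 and -0.41 for Abcg5, neither past the test. The ratio of Abcg5 to Abcg8 counts stayed between 0.650 and 0.769 in all 6 libraries. They share 82 exonic bases on opposite strands, a small part of either.

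None of 6 receptor and signalling genes was called by edgeR, against 9.54% of all tested genes. In a group this small, none called is close to that share. DESeq2 and limma-voom called none either, and none was below an unadjusted p of 0.05. Nr1h4, which encodes FXR, had 140.4, 148 and 160 CPM in IRE1fl and 137, 123 and 144 CPM in IRE1PKO (log2 fold change -0.15, SE 0.10). Nr0b2, which encodes SHP and is an FXR target, had 31.6, 15.0 and 26.8 CPM in IRE1fl and 22.4, 32.8 and 33.2 CPM in IRE1PKO. Its libraries overlapped widely, and the estimate was 0.27 (SE 0.31; edgeR adjusted p = 0.655). Omitting single libraries moved the Nr0b2 estimate from 0.01 to 0.49.

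Fgfr4 and Klb, which encode the receptor and co-receptor for Fgf15, had log2 fold changes of -0.22 (SE 0.13) and 0.05 (SE 0.13). Fgfr4 had 50.3 to 62.8 CPM in IRE1fl and 41.8 to 55.1 CPM in IRE1PKO, and Klb 32.1 to 42.9 and 34.5 to 41.5 CPM. Fgf15 had no count in any liver library, and the intestine was not analysed here. Nr1i2, which encodes the xenobiotic receptor PXR, had 87.4 to 100.1 CPM in IRE1fl and 96.3 to 109 CPM in IRE1PKO (0.12, SE 0.09). Nr1i3, which encodes its relative CAR, had 101 to 156 and 114 to 152 CPM (0.10, SE 0.19), but 74.9% of its exonic bases are also covered by Tomm40l on the opposite strand.

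Genes downstream of these receptors are given by list, beside all tested genes, of which 5.68% rose and 3.86% fell. Of 12 other FXR targets 11 were tested, of which Vldlr, a lipoprotein receptor, rose by 2.15 (SE 0.39) and Cyp4f15, a fatty acid hydroxylase, fell by 0.77 (SE 0.11), with a median of -0.08. The Vldlr call was lost without any one of 3 libraries (edgeR adjusted p up to 0.0799). Of 21 PXR and CAR targets, all tested, 7 rose and 2 fell, with a median of 0.45. Cyp2b9 and Cyp2b13, neither of them called, are also in the female-biased list above. The glutathione transferase Gstm3 rose by 2.14 (SE 0.18), the aldehyde dehydrogenase Aldh1a7 by 0.71 (SE 0.11), and Por, the electron donor of microsomal P450s, fell by 0.54 (SE 0.10).

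The classic reporters of these receptors are Cyp3a11 for PXR and Cyp2b10 for CAR. Cyp3a11 had 728, 259.8 and 203 CPM in IRE1fl and 878, 1116 and 801 CPM in IRE1PKO, without overlap but with IRE1fl 01 far above its group, and did not pass (1.23, SE 0.58; edgeR adjusted p = 0.285). Without IRE1fl 01 it passed (2.004, edgeR adjusted p = 9.32e-05). Cyp2b10 was low, with 1.16, 1.42 and 0.485 CPM in IRE1fl and 2.88, 2.96 and 3.08 CPM in IRE1PKO, and rose by 1.54 (SE 0.35; edgeR adjusted p = 0.0182). The Cyp2b10 call was lost in 2 of 6 omissions of a library. Both genes have close paralogs, so their counts are uncertain.

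Other regulators of bile acid genes included 16 tested genes, with a median log2 fold change of -0.17. Hnf4a had 638, 662 and 580.4 CPM in IRE1fl and 525, 509 and 514 CPM in IRE1PKO, without overlap (-0.28, SE 0.10; edgeR adjusted p = 0.0918). Nr5a2, which encodes LRH-1, an activator of Cyp7a1 and Cyp8b1, had 58.8 to 62.8 CPM in IRE1fl and 48.8 to 54.9 CPM in IRE1PKO (-0.22, SE 0.08; edgeR adjusted p = 0.124).

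Of 15 other bile acid and oxysterol enzymes 14 were tested, of which 1 rose and 1 fell, against 5.68% and 3.86% of all tested genes. Cyp2c70, the hydroxylase that makes muricholic acids in rodents, had 327, 366 and 508 CPM in IRE1fl and 103, 134 and 162 CPM in IRE1PKO. The groups lay far apart, and it fell by 1.59 (SE 0.21; edgeR adjusted p = 0.00449). Cyp46a1, which makes an oxysterol and is best known from neurons, had 4.21, 4.62 and 3.26 CPM in IRE1fl and 14.8, 18.9 and 10.1 CPM in IRE1PKO. It rose by 1.86 (SE 0.23; edgeR adjusted p = 0.00148). Both passed without each library in turn.

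**Figure D4:**
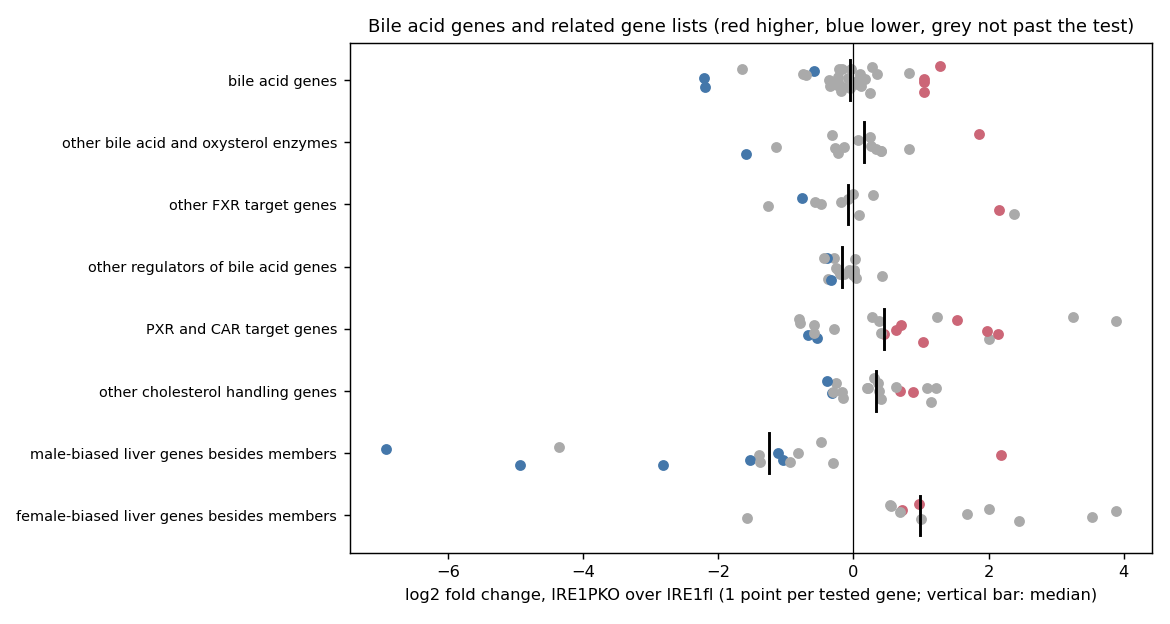
Log2 fold changes (IRE1PKO over IRE1fl) of the bile acid genes and 7 related gene lists, 1 point per tested gene, with the median as a vertical bar. The medians run from -1.26 for other male-biased genes to 0.99 for other female-biased genes, and the bile acid genes have a median of -0.06.

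Bile acid genes are expressed unevenly along the liver lobule, so markers of its zones are given beside them. Of 11 periportal hepatocyte markers 9 fell, against 3.86% of all tested genes. Among them is Cps1, which the hepatocyte list above also counts as a fall. The summed level of the 11 was 13021 to 14577 CPM in IRE1fl and 6945 to 8393 CPM in IRE1PKO. Of 11 pericentral markers 1 fell, with sums of 9343 to 12083 and 8106 to 11369 CPM that overlapped. The part of zonation in the values of the bile acid genes was not tested.

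**Figure D5:**
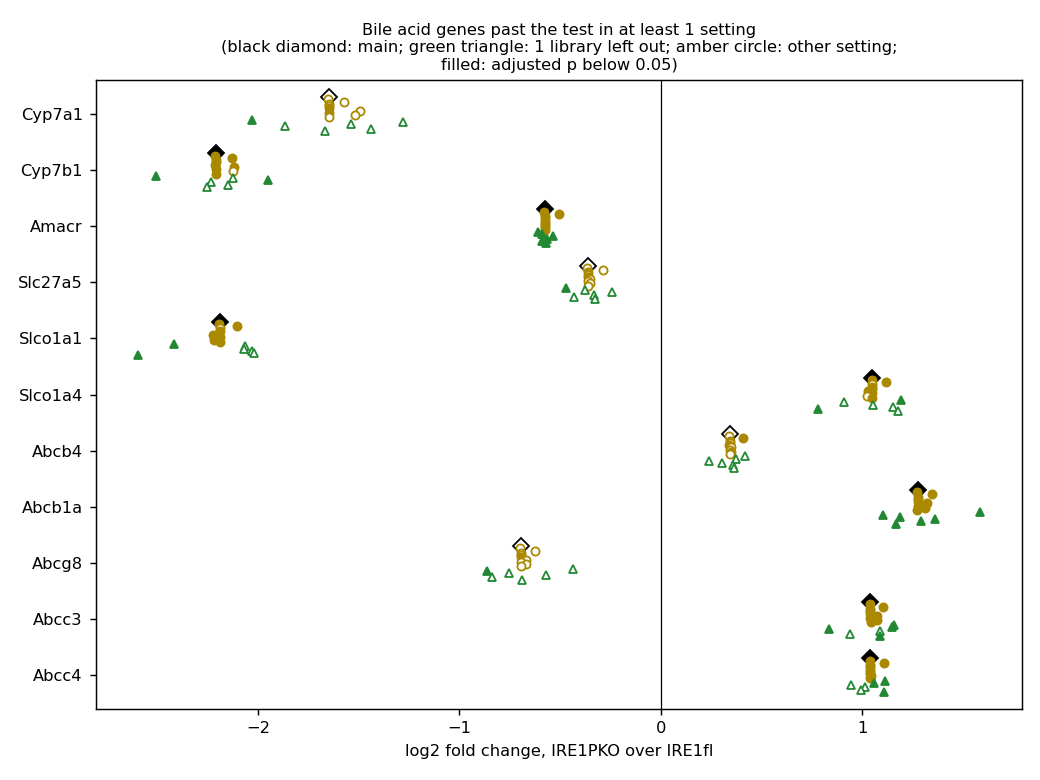
Log2 fold change of the 11 bile acid genes that passed in at least 1 of 16 settings, the main one included (filled: edgeR, DESeq2 or limma-voom adjusted p below 0.05). No value crosses 0, and Amacr and Abcb1a are filled throughout.

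Across settings, the members called moved more than their estimates. Of the 7 called genes, Amacr and Abcb1a passed without each library in turn, Abcc3 in 4 of 6 omissions, Abcc4 in 3, and Cyp7b1, Slco1a1 and Slco1a4 in 2 each. Without IRE1PKO 01, Abcb1a and Amacr alone were called among the 33 genes. Spread within a genotype differed widely between genes: the SD of Cyp7a1 was 54.3% of its mean in IRE1fl and that of Cyp8b1 47.6%, against 1.59% for Baat and 5.24% for Amacr. The median was 15.6% in IRE1fl and 10.4% in IRE1PKO.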

How the data were processed

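The values are raw counts by gene symbol for 6 liver libraries, deposited as 1 table; the submitters' processing notes name mm10. Aligner, counting program, annotation and strand setting: not given in the sources used here. Among values from 1 to 8, even ones outnumbered odd ones by 2.58 to 3.19 times, so reads rather than pairs may have been counted, and floors may be too low. Columns were matched to samples by genotype and number. Whether the labels' shared numbers 1 to 3 pair libraries is not known. Deviations of same-numbered libraries correlated with r of 0.0712, -0.0216 and 0.101, and those of other pairs with r of -0.107 to 0.0346. With 3 libraries per group these values cannot decide it. Within a group, chi-square per gene between libraries was 30.9 to 69.2, so none was a copy. The 27 date-like row names, with 0.178% of counts, stayed in.

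Genes were filtered with filterByExpr, scaled by TMM and tested two-sided with edgeR 4.0.16 (R 4.3.3; robust quasi-likelihood fit, no covariate, threshold 0.05). An exact permutation test of 3 against 3 cannot go below 0.1. Alternatives used DESeq2 1.42.0, limma 3.58.1 (voom), other scaling, filters, dispersion and threshold, halved counts, the number as a block, and omission of single libraries. On counts simulated for 14954 genes, the test recovered 26.9% of 67 genes given a 1.5-fold change, 65.7% of 67 given 2-fold and 97.0% of 66 given 4-fold, and 15 of 141 calls were false; with none changed, 3 genes were called. The 35 genes and all lists were chosen with earlier results of these data known. All 35 genes are accounted for; those called and the first of each role are given per library. At most 3 called genes with the smallest p are named from each other list, besides Fgf15, Cyp2c70, Nr5a2, Hnf4a, Cyp3a11 and Cyp2b10; defining markers are named with their cell type, and other names were chosen after their values were seen. One of 209 other symbols was found under another name and 1 was not matched. Positions and promoters come from RefSeq (GRCm38.p6, the build of mm10), exonic lengths and transcripts from GENCODE M21. Some results are not reported here.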

Additional observations from a re-analysis of the deposited data

How the results depend on the processing

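No estimate of the 33 genes that was past the threshold, in the main fit or in an alternative, changed sign. The numbers of genes higher and lower over the whole table were 849 and 577; leaving out 1 library gave 398 to 868 and 255 to 616. The lowest pair came without IRE1PKO 01, and without IRE1fl 02, IRE1fl 03 or IRE1PKO 02 the numbers were 553 and 343, 472 and 317, and 484 and 331. At a threshold of 0.1 they were 1299 and 992. Of the 33 genes, 4 were higher and 3 lower, with 1 to 4 higher and 1 to 5 lower when a library was left out. DESeq2's Wald test called 5 higher and 6 lower, adding Abcb4, Abcg8, Cyp7a1 and Slc27a5. Over the whole table it also called more genes than the main fit, 1139 higher and 858 lower. Without robust fitting Cyp7a1 also passed (-1.65, edgeR adjusted p = 0.0355). With the replicate number as a replicate block, 1051 genes were higher and 814 lower, among them 4 and 2 of the bile acid genes; Cyp7b1 (0.0667) and Slco1a4 (0.204) were not called and Abcb4 (0.0380) was. Libraries numbered 1 and 3 correlated best with their own number (0.0712 and 0.101). IRE1fl 02 did so with IRE1PKO 01 (0.0346), and IRE1PKO 02 with IRE1fl 01 (0.0236). For single bile acid genes, 462 of 495 alternative values kept their side of the threshold, 21 lost a call and 12 gained one. The causes were not tested. Depth limits Slc51a and Slc51b, which were too low to test.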

Other observations

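Genes that supply or dispose of the cholesterol from which bile acids are made had mostly positive log2 fold changes in IRE1PKO. Of 19 listed genes 18 were tested, with a median of 0.33. A positive log2 fold change was seen in 12, against 49.8% of all tested genes. Nceh1, a cholesterol ester hydrolase, rose by 0.68 (SE 0.13; edgeR adjusted p = 0.0101), a call lost in 1 of 6 omissions of a library (edgeR adjusted p = 0.0511).

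Scarb1, the high-density lipoprotein receptor, fell by 0.32 (SE 0.09), and Lcat, which esterifies plasma cholesterol and was named after its value was seen, fell by 0.39 (SE 0.11). Both lay close to the threshold (edgeR adjusted p = 0.0467 and 0.0489) and lost the call without any one library.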
